A study of Homo sapiens with 6 samples.

Results

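LMLN, PM20D2, DCDC2 and TRIM58 are 4 protein-coding genes that stood among the most raised transcripts after LINC01133 knockdown in 12Z cells, an established human epithelial line from an endometriosis lesion. They were selected on that rise, so the difference between the groups is given for them as a description and without a test. They are 4 of the 60660 annotated genes in the count tables and 4 of the 15155 with enough counts to be tested. RNA-sequencing covered 3 knockdown libraries, from 12Z cells given siRNA LINC01133a, and 3 control libraries, from cells given an siRNA without a target. The targeting oligo was at 10 nM, a dose for the control oligo was not given separately, and cells were lysed 72 h later. LINC01133 is a long non-coding RNA, and the study asked which genes depend on it in endometriotic epithelium. Both groups went through the same transfection, the knockdown rests on 1 siRNA oligo, and untransfected cells were not analysed here. Numbered libraries are biological replicates according to the study, and no shared culture or day is given.

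LMLN encodes a zinc metallopeptidase of the leishmanolysin family, whose fly homologue, invadolysin, is needed for mitosis and cell migration and is found on lipid droplets. PM20D2 encodes an M20-family peptidase that cleaves dipeptides such as beta-alanyl-lysine, a side product of carnosine synthesis. DCDC2 carries doublecortin domains, binds microtubules and lies in the axoneme of the primary cilium. TRIM58 is a RING-type E3 ubiquitin ligase with a B30.2 domain, known from late erythroblasts, where it targets the microtubule motor dynein for degradation.

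The genes lie on 3 chromosomes (GRCh38, 1-based). LMLN spans chr3:197960200-198043720 on the plus strand and its canonical transcript has 17 exons. PM20D2 spans chr6:89146055-89165565 on the plus strand with 7 exons, and DCDC2 lies on the minus strand of the same chromosome at chr6:24171755-24358059 with 10 exons. TRIM58 spans chr1:247857187-247880138 on the plus strand with 6 exons. To show what the start regions of these co-raised genes look like, their promoters are given below from RefSeq (GRCh38.p14). Each runs from 250 bases before to 50 bases after the RefSeq start, 5′ to 3′ on the strand of the gene. For LMLN the RefSeq start lies shortly inside the span given above, not at its first base. Capitals mark matches on either strand to 8 short promoter motifs. They were the core promoter box spelled TATAAA, the box spelled CCAAT, the Sp1-type GC box spelled GGGCGG, the E-box spelled CACGTG, the YY1-type motif spelled AAGATGG, the AP-1-type motif spelled TGANTCA, the half-site of the cyclic AMP response element (CRE) spelled TGACG, and the NRF1-type motif spelled GCGCNTGCG.
LMLN, chr3:197959967-197960266, plus strand: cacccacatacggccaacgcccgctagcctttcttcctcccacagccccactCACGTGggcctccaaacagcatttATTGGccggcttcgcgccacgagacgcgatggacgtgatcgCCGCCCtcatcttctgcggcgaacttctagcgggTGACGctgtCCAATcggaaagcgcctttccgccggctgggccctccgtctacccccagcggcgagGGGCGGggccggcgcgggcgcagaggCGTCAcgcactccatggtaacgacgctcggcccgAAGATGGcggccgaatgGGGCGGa
PM20D2, chr6:89145805-89146104, plus strand: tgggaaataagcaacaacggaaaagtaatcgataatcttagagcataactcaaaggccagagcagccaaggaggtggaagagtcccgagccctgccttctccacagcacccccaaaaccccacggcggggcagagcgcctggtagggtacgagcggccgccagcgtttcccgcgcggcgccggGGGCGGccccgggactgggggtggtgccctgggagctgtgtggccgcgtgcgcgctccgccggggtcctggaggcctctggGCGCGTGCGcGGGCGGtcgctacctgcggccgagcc
DCDC2, chr6:24358010-24358309, minus strand: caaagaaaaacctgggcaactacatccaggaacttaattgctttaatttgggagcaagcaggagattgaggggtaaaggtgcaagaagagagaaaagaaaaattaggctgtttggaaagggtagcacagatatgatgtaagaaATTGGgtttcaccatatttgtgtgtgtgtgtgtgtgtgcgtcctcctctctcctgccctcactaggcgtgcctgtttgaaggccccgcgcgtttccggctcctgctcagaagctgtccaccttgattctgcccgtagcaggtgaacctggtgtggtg
TRIM58, chr1:247856937-247857236, plus strand: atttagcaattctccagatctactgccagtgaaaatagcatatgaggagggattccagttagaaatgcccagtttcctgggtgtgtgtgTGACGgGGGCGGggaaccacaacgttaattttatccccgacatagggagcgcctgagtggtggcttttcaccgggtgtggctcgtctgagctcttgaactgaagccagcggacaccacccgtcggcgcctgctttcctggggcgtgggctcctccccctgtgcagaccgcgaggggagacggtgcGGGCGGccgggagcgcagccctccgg

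No motif was matched in all 4 promoters. The GC box was matched in 3, with first bases at -133, -34 and 43 in LMLN, -67 and 24 in PM20D2 and -155 and 24 in TRIM58. Positions are counted from the RefSeq start base as 0. It occurs in 44.6% of the 27305 RefSeq promoters of the same length. DCDC2 held only a CCAAT match at -107, and LMLN held CCAAT at -174 and -90. CCAAT occurs in 35.7% of all promoters. The CRE half-site was matched at -99 and -8 in LMLN and at -161 in TRIM58, against 25.0% of all promoters. LMLN alone of the 4 held the E-box, at -198, and the YY1-type motif, at 26, which occur in 7.43% and 6.06% of all promoters. PM20D2 alone held the NRF1-type motif, at 14, present in 8.05%. None of the 4 held TATAAA (12.0% of all promoters) or TGANTCA (7.76%). The marked matches do not overlap each other. GC content was 67.7% for LMLN, 68.7% for PM20D2, 60.3% for TRIM58 and 49.0% for DCDC2, with a median of 58.3% over all promoters. The observed over expected ratio of CpG was 1.12, 0.882, 0.741 and 0.40 in the same order, against a median of 0.580, so that the DCDC2 promoter was the poorest of the 4 in both. These are matches of letters in a fixed window, and binding at them was not measured.

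The siRNA itself can pair with other transcripts through bases 2 to 8 of its antisense strand, the seed, here in capitals. Because 1 oligo was used, the matching site was looked for in the 3′ UTRs of the canonical transcripts.
LINC01133a antisense strand: uCCAUUCUcagguaacuucaa
DCDC2 site: tttctctgtggAGAATGGtggtctccgtgg
TRIM58 site: taaattgattcAGAATGGtctgatactatt
In both site windows the capitals mark the 7 bases complementary to the seed. DCDC2 held 1 such site in 2975 bases of 3′ UTR and TRIM58 held 2 in 3649 bases, of which the first is shown, whereas LMLN (5053 bases) and PM20D2 (3302 bases) held 0. The 8-base form with a following A was in none of the 4. Among 12538 tested genes with an annotated 3′ UTR, of median length 1365 bases, 17.1% held the 7-base and 5.77% the 8-base site. Pairing of this kind is known to lower transcripts. Whether the oligo acted on any of them was not tested.

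Levels are given as CPM, the counts on the strand of a gene divided by the TMM-scaled library total. The target was lower in each knockdown library, with LINC01133 counts of 859, 726 and 808 in controls 1 to 3 and of 153, 135 and 122 in knockdowns 1 to 3. Total counts on genes ran from 27742562 to 37551194 per library. Control 2 stood apart from the other controls, with a chi-square per degree of freedom of 11.8 and 12.8 against 3.73 between controls 1 and 3 and 2.21 to 3.48 between knockdown libraries. Among the epithelial markers, KRT8, KRT18 and KRT19 were abundant (3230, 1778 and 1235 CPM in control cells) and EPCAM was nearly absent (0.421 CPM). All 6 of these markers were tested and 4 of them were lower in knockdown cells (6.43% of all genes tested were lower), with CDH1, the epithelial cadherin, at 12.7 ± 1.13 and 3.16 ± 0.650 CPM (mean ± SD, n = 3 per group) and the summed markers at 6178 to 6514 and 3947 to 4132 CPM. KRT7 and KRT19 were among the lower markers, and the paper reported that follow-up measurements did not reproduce their reduction. The part of the shift in epithelial markers in the results on the 4 genes was not tested. In bulk RNA fewer cells with a transcript and less of it per cell cannot be told apart.

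LMLN showed the greatest rise of the 4. Its level was 4.21, 4.35 and 3.62 CPM in controls 1 to 3 and 22.6, 23.2 and 21.7 CPM in knockdowns 1 to 3. The groups lay far apart, with the lowest knockdown library 4.98-fold above the highest control. The mean rose from 4.06 ± 0.389 to 22.5 ± 0.787 CPM, a log2 fold change of 2.47 with a standard error of 0.08, or 5.55-fold.

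PM20D2 was at 44.9, 43.5 and 49.0 CPM in the controls and at 134, 135 and 141 CPM in the knockdown libraries. Again no library of one group entered the range of the other, and the lowest knockdown library was 2.73-fold above the highest control. The means were 45.8 ± 2.83 and 136 ± 3.74 CPM, with a log2 fold change of 1.57 (SE 0.05, 2.98-fold).

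DCDC2 was measured at 3.39, 4.04 and 3.94 CPM in the controls and at 11.3, 10.2 and 10.4 CPM in the knockdown libraries. The lowest knockdown library was 2.52-fold above the highest control. Its means were 3.79 ± 0.347 and 10.6 ± 0.618 CPM and its log2 fold change was 1.5 (SE 0.10, 2.82-fold), the least precise of the 4.

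TRIM58 was at 48.6, 51.3 and 49.5 CPM in the controls and at 136, 134 and 123 CPM in the knockdown libraries. Knockdown 3 was the lowest of its group and still 2.39-fold above the highest control. The means were 49.8 ± 1.38 and 131 ± 7.14 CPM, with a log2 fold change of 1.39 (SE 0.05, 2.63-fold). Control 2, which stood apart, was the highest control for LMLN, DCDC2 and TRIM58 and the lowest for PM20D2.

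**Figure D1:**
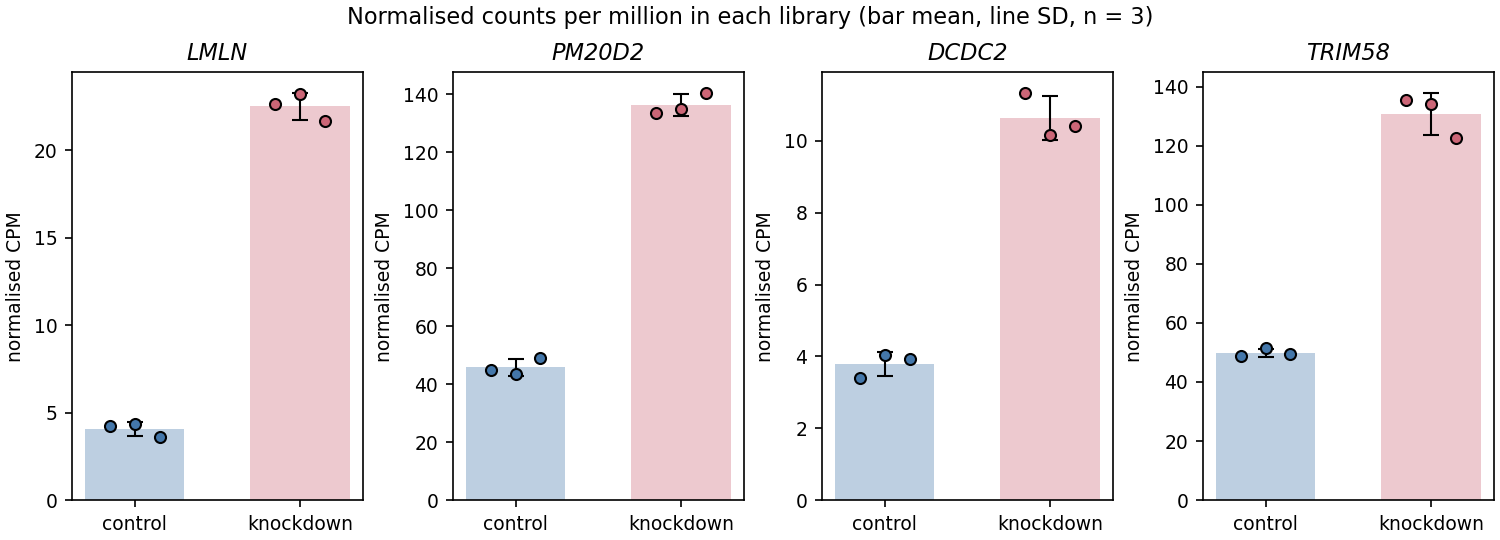
Normalised CPM (vertical axes, each from 0) of the 4 genes in the 3 control and 3 knockdown libraries, with points for libraries, bars for means and lines for the SD. In every panel the lowest knockdown point is above the highest control point, by 4.98-fold for LMLN, 2.73-fold for PM20D2, 2.52-fold for DCDC2 and 2.39-fold for TRIM58.

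The knockdown libraries were all above the control libraries for each of the 4 genes. This was also so for 28.3% of all genes tested, and since the genes were chosen by this contrast nothing is read from it. Of the 15155 genes tested, 11.7% were DE (fold change over 1.5 and adjp under 0.05), with 5.3% higher and 6.43% lower in knockdown cells. The calls comprised 803 genes that were higher and 975 that were lower, and 1030 and 814 when libraries were scaled by their total alone. Ordered by log2 fold change, LMLN, PM20D2, DCDC2 and TRIM58 stood at ranks 3, 30, 37 and 59 of all genes tested. Among 11178 genes with a mean normalised count of at least 100 they stood at 1, 4, 6 and 12. Next to TRIM58 in that order were CREB5, at a log2 fold change of 1.40, and CBS, at 1.38, neither of which belongs to the 4.

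**Figure D2:**
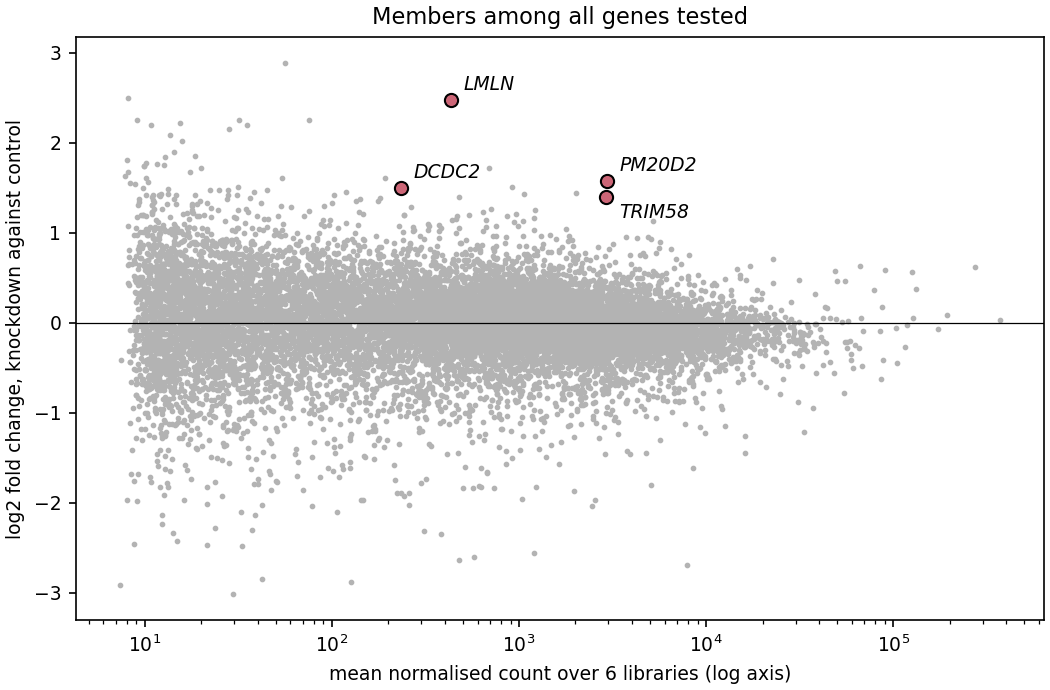
Log2 fold change of knockdown against control (vertical axis) against the mean normalised count over 6 libraries (horizontal log axis) for 15155 genes, with LMLN, PM20D2, DCDC2 and TRIM58 in red. LMLN stands alone at 2.47 for its mean count of 430, and PM20D2 and TRIM58 lie at the upper edge at mean counts of 2948 and 2924.

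Levels of different genes were compared per kilobase of annotated exon. In control cells PM20D2 (9.74 ± 0.602 CPM per kb) and TRIM58 (9.64 ± 0.267) did not differ beyond their spread, and DCDC2 (0.757 ± 0.0694) and LMLN (0.467 ± 0.0448) were far below them. In knockdown cells the order of the level was PM20D2 (28.98 ± 0.795 CPM per kb), TRIM58 (25.3 ± 1.38), LMLN (2.59 ± 0.0905) and DCDC2 (2.13 ± 0.123). LMLN and DCDC2 had thus changed places, and PM20D2 and TRIM58 lay apart by more than either SD. With the canonical transcript as the length, LMLN was at 0.569 ± 0.0545 and 3.15 ± 0.110 CPM per kb and DCDC2 at 0.804 ± 0.0736 and 2.26 ± 0.131, which gave the same order. Within libraries, the ratio of LMLN to DCDC2 counts was 1.24, 1.08 and 0.919 in the controls and 2.00, 2.28 and 2.08 in the knockdown libraries. The ratio of PM20D2 to TRIM58 counts was 0.923, 0.847 and 0.990 in the controls and 0.985, 1.00 and 1.15 in the knockdown libraries, so that the groups overlapped slightly.

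Each table holds 3 counts per gene, one without regard to strand and one for each strand relative to read 1. The strand opposite to read 1 held 93.9% to 94.1% of the stranded counts and was taken as the strand of the transcript. On it, LMLN had 144, 125 and 113 read pairs in controls 1 to 3 and 864, 774 and 618 in knockdowns 1 to 3. On the strand of read 1, LMLN had 0, 1 and 0 in the controls and 4, 1 and 0 in the knockdown libraries. The rise of LMLN therefore came from reads of its own strand.

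The other genes showed the same division. PM20D2 had 1535, 1250 and 1529 read pairs on its own strand in the controls and 5100, 4492 and 4010 in the knockdown libraries, against 0 to 4 and 9 to 27 on the strand of read 1. DCDC2 had 116, 116 and 123 and then 433, 339 and 297 on its own strand, against 0 to 2 and 0 to 1. TRIM58 had 1663, 1475 and 1545 and then 5176, 4474 and 3497, against 0 to 7 and 7 to 25. Over the 6 libraries the strand of read 1 took 0.227% of the stranded counts of LMLN, 0.301% of PM20D2, 0.280% of DCDC2 and 0.291% of TRIM58.

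Without regard to strand the count was lower for LMLN and DCDC2, the only members that overlap annotated antisense genes. LMLN dropped to 112, 111 and 96 in the controls and to 742, 656 and 535 in the knockdown libraries, a loss of 11.2% to 22.2%. DCDC2 dropped to 97, 107 and 117 and to 378, 308 and 268, a loss of 4.88% to 16.4%. PM20D2 (1538, 1250 and 1532, then 5123, 4499 and 4016) and TRIM58 (1665, 1475 and 1552, then 5201, 4485 and 3504) lost no counts. With the unstranded column the log2 fold changes were 2.505 for LMLN, 1.572 for PM20D2, 1.475 for DCDC2 and 1.393 for TRIM58. With the strand column they were 2.471, 1.573, 1.496 and 1.394.

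LMLN-AS1 and the lncRNA ENSG00000286755 lie within LMLN on the other strand, and KAAG1 overlaps the start region of DCDC2 on the other strand. On their own strand the antisense genes of LMLN together had 0 counts in 5 libraries and 1 in knockdown 1, and KAAG1 had 1 count in control 2 and 0 elsewhere. In the column of the strand of read 1, in which reads of LMLN fall on them, the antisense genes of LMLN had 30, 13 and 12 counts in the controls and 107, 106 and 68 in the knockdown libraries. The counts missing from LMLN without regard to strand were 32, 14 and 17 in the controls and 122, 118 and 83 in the knockdown libraries, close to these numbers library by library. KAAG1 had 19, 9 and 8 and then 55, 33 and 30 in that column, where DCDC2 lost 19, 9 and 6 and then 55, 31 and 29. A rise of an antisense transcript was thus not detectable at this depth, and the reads on these genes lay on the strand of LMLN or DCDC2. RNU6-621P, a pseudogene of the U6 small nuclear RNA inside LMLN, had 0 counts in all 6 libraries.

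**Figure D3:**
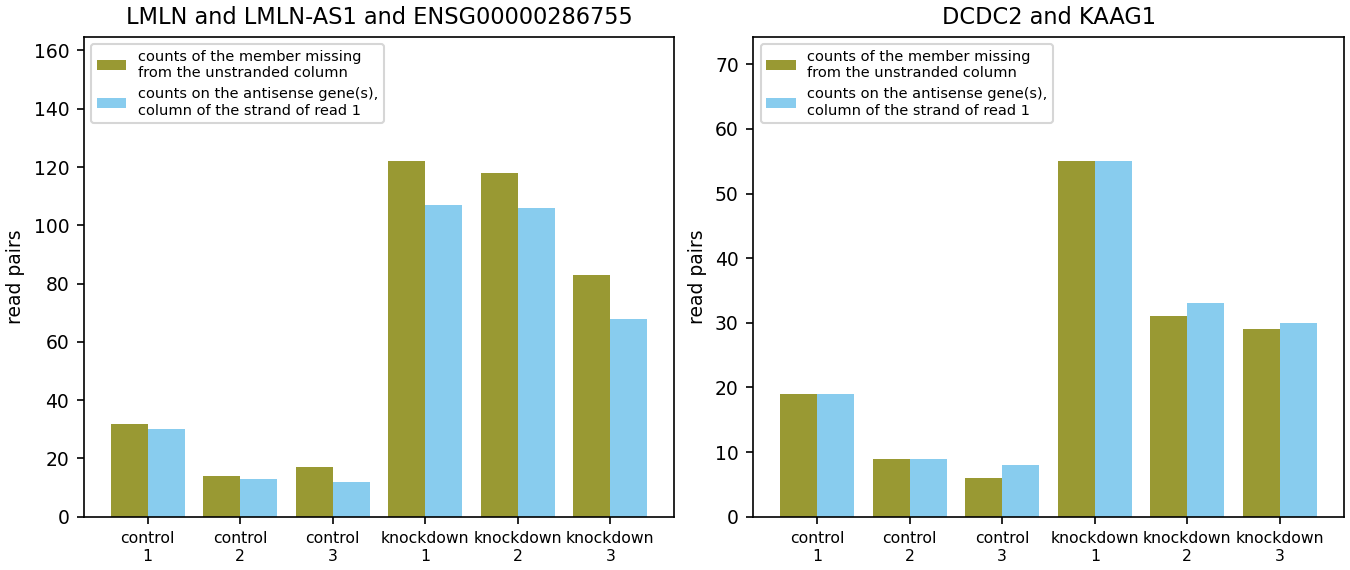
Read pairs (vertical axis) per library that LMLN (left) and DCDC2 (right) lost in the column without strand, beside the counts that their antisense genes received in the column of the strand of read 1. The paired bars have similar heights in every library, from 6 and 8 for DCDC2 in control 3 to 122 and 107 for LMLN in knockdown 1.

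The genes next to the 4 were examined for a shared rise, taking the 5 nearest tested genes on each side by the gap between gene bodies. Of 35 such neighbours, 4 were DE (11.4%, against 11.7% of all genes tested), each of them higher (5.3% of all genes tested). The median log2 fold change of the neighbours was -0.03, against 0.003 over all genes tested. All 4 DE neighbours belonged to DCDC2. Each adjp was computed by edgeR's quasi-likelihood test and adjusted by Benjamini-Hochberg across the 15155 tested genes.

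IQCG, a gene of a ciliary calmodulin-binding protein, starts 58 bases from LMLN on the opposite strand and shares its start region. It had 235, 169 and 213 counts in the controls and 247, 212 and 169 in the knockdown libraries, and the groups overlapped after scaling. Its means were 6.53 ± 0.558 and 6.25 ± 0.288 CPM and its log2 fold change was -0.06 ± 0.10 (SE, adjp = 0.63). RPL35A, a ribosomal protein gene 3.59 kb before LMLN, had a log2 fold change of -0.03 (SE 0.04, adjp = 0.60). None of the 5 tested neighbours of LMLN was DE with edgeR or DESeq2. Of them 1, FYTTD1, had an unadjusted p under 0.05, as had 55.0% of all genes tested. It was lower at -0.44 (adjp = 4.1e-07), short of the fold cutoff. No gene on the side of higher coordinates was tested, since LMLN lies near the end of its chromosome.

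PM20D2 also has a divergent partner, the lncRNA ENSG00000288009, whose start lies 70 bases away. It had 19, 11 and 14 counts in the controls and 23, 22 and 27 in the knockdown libraries. After scaling, the groups did not overlap, with means of 0.462 ± 0.0873 and 0.736 ± 0.184 CPM. All knockdown libraries were likewise above all controls for 28.3% of all genes tested. Its log2 fold change was 0.63 ± 0.28 (SE) and did not pass the test (adjp = 0.081). SRSF12, a splicing factor gene 27.98 kb before PM20D2, was lower without reaching the fold cutoff (log2 fold change -0.41, SE 0.16, adjp = 0.045), and GABRR2, a GABA receptor gene 88.9 kb after it, was at -0.58 (SE 0.39, adjp = 0.24). None of the 10 tested neighbours of PM20D2 was DE with edgeR or DESeq2, and their median log2 fold change was -0.21. Of the 10, 5 had an unadjusted p under 0.05 (55.0% of all genes tested). An adjp under 0.05 was reached by 4, against 7315 of 15155 genes tested.

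DCDC2 was the only member with DE neighbours, 4 of 10 (40%, against 11.7% of all genes tested). All 4 were higher (5.3% of all genes tested), and whether they gather around DCDC2 was not tested. The nearest tested gene, MRS2, a mitochondrial magnesium channel gene 44.8 kb away, was at 59.2 ± 1.83 CPM in controls and 57.8 ± 1.51 in knockdown cells (log2 fold change -0.03, SE 0.04, adjp = 0.54). GPLD1, which encodes a phospholipase that cleaves GPI anchors, had 40, 36 and 35 counts in the controls and 61, 69 and 67 in the knockdown libraries. It lies 66.5 kb away and overlaps the far end of MRS2, and its log2 fold change was 0.75 (SE 0.19, adjp = 0.0050). ALDH5A1, the gene of succinate semialdehyde dehydrogenase in GABA breakdown, had 563, 455 and 606 counts in the controls and 1057, 926 and 846 in the knockdown libraries. It lies 137 kb away and overlaps the start of GPLD1, with a log2 fold change of 0.72 (SE 0.07, adjp = 3.2e-06).

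The other DE neighbours of DCDC2 were distant. SOX4, a gene of an SRY-related transcription factor 2573 kb away, was at 19.5 ± 1.91 and 33.1 ± 0.382 CPM (log2 fold change 0.76, SE 0.06, adjp = 6.4e-07). ID4, a gene of a helix-loop-helix inhibitor 4330 kb away, was at 94.6 ± 2.68 and 149 ± 2.96 CPM (log2 fold change 0.65, SE 0.04, adjp = 2.5e-08). Of the remaining neighbours, E2F3 (-0.24, adjp = 0.00040), MBOAT1 (-0.35, adjp = 0.00046) and TDP2 (-0.25, adjp = 0.00020) were lower, short of the fold cutoff. CDKAL1 was at 0.02 (adjp = 0.70) and ACOT13 at 0.03 (adjp = 0.77). An adjp under 0.05 was thus reached by 7 of the 10 neighbours in both directions, against 7315 of 15155 genes tested. MRS2, which lies between DCDC2 and GPLD1, was not DE. Every DE neighbour had a smaller log2 fold change than DCDC2 itself (1.5), which was chosen for its rise, so nothing is read from this.

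TRIM58 lies among olfactory receptor genes, of which OR2W3, 15.4 kb downstream on the same strand, was the nearest tested gene. OR2W3 had 92, 87 and 77 counts in the controls and 134, 109 and 92 in the knockdown libraries. After scaling the groups did not overlap, with means of 2.73 ± 0.283 and 3.34 ± 0.153 CPM. Such a separation upwards was found for 28.3% of all genes tested. The log2 fold change of OR2W3, 0.30 (SE 0.13), did not pass the test (adjp = 0.072). On the other side ZNF496, a zinc finger gene 525 kb away, was at -0.04 (SE 0.05, adjp = 0.49). None of the 10 tested neighbours of TRIM58 was DE with edgeR or DESeq2, and 7 had an unadjusted p under 0.05 (55.0% of all genes tested). An adjp under 0.05 was reached by 5, against 7315 of 15155 genes tested. These 5 were all higher in knockdown cells and short of the fold cutoff. The 10 had a median log2 fold change of 0.23, against 0.003 over all genes tested. Of them 7 were above 0, up to 0.45 for ZNF692 (adjp = 0.0011).

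Genes of the families and structures in which the members act were then examined as lists. For DCDC2, 9 genes of doublecortin proteins were listed, of which 2 had enough counts to be tested and 0 were DE with edgeR or DESeq2. Both had an unadjusted p under 0.05 (55.0% of all genes tested), in opposite directions. DCLK1, a microtubule-associated kinase, was at 14.7 ± 1.42 and 12.3 ± 0.297 CPM (log2 fold change -0.26, adjp = 0.015), and its paralogue DCLK2 was at 9.12 ± 1.05 and 11.3 ± 1.01 CPM (0.31, adjp = 0.018).

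Of 70 genes of the primary cilium, in which DCDC2 resides, 70 were tested, 2 were higher and 1 was lower. This is 4.29% DE against 11.7% of all genes tested, with a median log2 fold change of 0.03. NEK8, a kinase of the inner part of the cilium, was at 2.72 ± 0.377 and 5.46 ± 0.575 CPM (log2 fold change 0.99, adjp = 4.1e-05). INPP5E, a ciliary phosphoinositide phosphatase, was at 18.3 ± 2.95 and 27.6 ± 1.39 CPM (0.59, adjp = 0.00015), just past the fold cutoff, and not DE without control 2 (0.46). KIF17, a motor of the cilium, was at 1.40 ± 0.0875 and 0.899 ± 0.102 CPM (-0.64, adjp = 0.013) and was not DE with DESeq2. The division of these calls varied, with 4 higher and 0 lower when libraries were scaled by their total alone, 1 higher and 2 lower without control 2, and 2 of each without knockdown 3.

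TRIM58 is known to act on dynein, and of 28 genes of cytoplasmic dynein and dynactin 26 were tested and 0 were DE with edgeR or DESeq2. At an unadjusted p under 0.05 there were 17 such genes (65.4%, against 55.0% of all genes tested), with a median log2 fold change of 0.01 over the list. The heavy chain gene DYNC1H1 was at 577 ± 185 and 483 ± 47.6 CPM (log2 fold change -0.26, SE 0.15, adjp = 0.19), with a wide spread in the controls. CAPZA1, an actin-capping subunit that dynactin shares, was lower at -0.19 (adjp = 0.00055). DYNC1LI2, a light intermediate chain gene of dynein, was higher at 0.17 (adjp = 0.0012). Both were short of the fold cutoff. These are transcript levels, and dynein protein was not measured.

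Of 28 further TRIM genes with a B30.2 domain, 21 were tested, 1 was higher and 1 was lower (9.52% DE, against 11.7% of all genes tested), with a median log2 fold change of 0.05. TRIM17 was at 3.00 ± 0.546 and 5.51 ± 0.688 CPM (log2 fold change 0.86, adjp = 0.00027), and TRIM47 was at 8.55 ± 0.464 and 4.38 ± 0.431 CPM (-0.97, adjp = 4.3e-06). Both are putative E3 ubiquitin ligases, as is TRIM58. TRIM58 is best known from red cell precursors, but of 12 erythroid markers only EPOR, the erythropoietin receptor, had enough counts to be tested (6.44 ± 0.359 and 5.35 ± 0.512 CPM). The summed level of the erythroid markers was 6.20 to 6.96 CPM in controls and 4.87 to 5.89 CPM in knockdown cells, and ALAS2, GATA1 and HBA1 had 0 counts in all libraries. Leukocyte and endothelial lists were also low, with CD3E at 0 and PTPRC at 0.737 and 0.630 CPM, except that CD14 was lower in knockdown cells (52.7 ± 3.15 and 26.7 ± 1.01 CPM, adjp = 1.4e-08). Of these, 2 of 4 leukocyte and 1 of 3 endothelial markers were tested, and their summed levels were 49.98 to 56.4 and 26.1 to 27.99 CPM for the first and 0.640 to 0.801 and 0.707 to 0.930 CPM for the second.

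Around PM20D2, 19 genes of M20 peptidases and of dipeptide and beta-alanine metabolism were listed, of which 11 were tested, 0 were higher and 1 was lower (9.09% DE, against 11.7% of all genes tested). SLC6A6, the taurine and beta-alanine transporter, was at 136 ± 24.2 and 65.6 ± 3.33 CPM (log2 fold change -1.05, adjp = 1.3e-06). The median of the list was -0.20. Between 1 and 3 of these genes were DE when single libraries were left out, with 3 without control 2 and 3 without knockdown 3.

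LMLN was set beside 25 lipid droplet genes because of the site of its fly homologue. Of these, 16 were tested, 0 were higher and 1 was lower (6.25%, against 6.43% of all genes tested that were lower), with a median log2 fold change of -0.19. DGAT2, an enzyme of the last step of triglyceride synthesis, was at 2.44 ± 0.282 and 1.26 ± 0.228 CPM (log2 fold change -0.94, adjp = 0.00058).

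The genes whose pattern over the 6 libraries was most like each member were found by the root mean square difference of log2 CPM, each centred on its control mean, among 11178 genes with a mean count of at least 100. TRIM58 was nearest to FAM234B (0.049), CNN1 (0.072) and CREB5 (0.087), and DCDC2 to FAM234B (0.069), CREB5 (0.077) and TRIM58 (0.100). PM20D2 was nearest to DCDC2 (0.126), ANKRD1 (0.133) and FAM234B (0.137). LMLN had no close partner, with MICB at 0.527, PM20D2 at 0.640 and ADM2 at 0.642. FAM234B was thus among the nearest genes of 3 of the 4, at 17.9 and 48.0 CPM in control and knockdown cells. This measure follows mainly the size of the difference between the groups, which chose the members.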

How the data were processed

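Poly(A) RNA of 6 libraries of 12Z cells was sequenced in pairs. The labels name an NEB and the paper a TruSeq kit. The authors used STAR 2.7.6a, GRCh38.p13 and GENCODE v36 to align reads and deposited raw counts of read pairs per gene, unstranded and for either strand, without normalization. The column opposite to read 1 was used here, with 27742562 to 37551194 counts per library. Rows without a gene were left out. Intervals cover spread between libraries only.

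Genes passing filterByExpr (minimum count 10) entered edgeR's quasi-likelihood test (edgeR 4.0.16 in R 4.3.3, TMM, Benjamini-Hochberg). DE genes had a fold change over 1.5 and adjp under 0.05. DESeq2 1.42.0, other scalings, filters, the unstranded column, a replicate block and leaving out libraries were alternatives. On simulated counts edgeR recovered 200 of 200 changed genes among 14977 tested, with 3 false calls. Since none was missed, the fold change or count below which genes are missed was not tested.

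The members and lists were chosen with earlier results of these data known. Named genes were the members, the target, the overlapping and nearest tested genes, DE neighbours, the DE genes of each list or otherwise the 3 with most counts, and the 3 genes of the most similar pattern. A few genes that complete a range were added after their values were seen. Positions came from GENCODE v44, in which the 4 IDs have the same version. Symbols were found for 60419 of 60660 IDs and for 204 of 204 listed genes, METTL7A and METTL7B under newer names. Promoters came from RefSeq. The window of the other TRIM58 site is not reported here.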

Additional observations from a re-analysis of the deposited data

How the results depend on the processing

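The log2 fold changes of the 4 genes kept their direction under all 13 alternatives and moved by less than the spread between replicates. They ranged from 2.40 to 2.53 for LMLN, from 1.54 to 1.64 for PM20D2, from 1.42 to 1.56 for DCDC2 and from 1.37 to 1.46 for TRIM58. All genes called numbered 1446 to 1963 (1778 as reported), and neighbours called 4 to 5. Of the dipeptide and M20 peptidase genes, 1 was DE as reported, 2 when libraries were scaled by their total alone, and 1 to 3 when single libraries were left out (3 without control 2 and 3 without knockdown 3). The cause was not tested. Scaling by the total alone also shifted the median of all genes to 0.07 and the share of higher calls from 45.2% to 55.9%. INPP5E was not DE with the unstranded column (0.58), without control 2 (0.46) or without knockdown 1 (0.55), and KIF17 was not DE with DESeq2 (-0.64), by total alone (-0.58) or without knockdown 1 (-0.54). Of the epithelial markers, KRT8 was not DE by total alone (-0.56) and KRT7 was not DE under 5 alternatives (-0.58 to -0.53). The other DE genes of the neighbours and lists, CDH1, KRT19 and CD14 among them, were DE under all 13. Deviations from the group means correlated at -0.01, 0.005 and 0.06 between libraries of the same number. Only equal numbers were compared, so these values cannot show whether libraries shared a culture or day. A replicate block gave 1747 genes called and 2.47, 1.58, 1.5 and 1.39 for the 4 genes in the order above. It changed none of the DE calls of these neighbours and list genes, and calls of other genes were not compared. Low counts limit LMLN, with 113 to 144 counts per control library, DCDC2, with 116 to 123, and ENSG00000288009, with 11 to 27 over all libraries.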
